A study of Mus musculus with 2 samples.

Results

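Tas1r1, Tas1r2 and Tas1r3 encode the subunits of the mammalian sweet and umami taste receptors, and their counts were followed in every barcode as 3 of the 21888 genes listed for either of 2 libraries of mouse taste cells. The 3 genes were taken by name from both tables of counts, and each passed the limit of 10 CPM, the count scaled to 1000000 counts of the barcode or library, in at least 1 library. The cells came from adult α-gustducin-GFP mice on a C57BL/6J background, in which green fluorescent protein reports α-gustducin, the G protein α subunit of taste that Gnat3 encodes. Fluorescent cells were sorted from 2 sites, the anterior fungiform papillae (FP) and the posterior circumvallate papilla (CV). Both groups carried the reporter, and the labels give no treatment or deletion for either. The number of animals behind each library and their sex were not given in the sources used here. With 1 library for each papilla there was no replicate, so no test between papillae was made, and the papilla cannot be told apart from the library.

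Tas1r proteins are class C G protein-coupled receptors that work in pairs. Tas1r2 with Tas1r3 forms the sweet receptor, and Tas1r1 with Tas1r3 forms the receptor for umami, the taste of amino acids such as glutamate. Type II taste cells carry these receptors, or the bitter receptors of the Tas2r family, and pass their signal through a G protein to phospholipase Plcb2, the calcium store channel Itpr3 and the cation channel Trpm5. α-Gustducin is known best as the bitter G protein in the circumvallate papilla and occurs with Tas1r3 in fungiform papillae, so a sort on its reporter samples only part of the sweet and umami cells of the back of the tongue.

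All 3 genes lie on mouse chromosome 4 (GENCODE M21, build mm10) and have 6 exons in their longest transcript. Tas1r2 spans chr4:139653538-139670280 on the forward strand. Tas1r1 spans chr4:152027914-152038568 and Tas1r3 spans chr4:155859268-155863362, both on the reverse strand. The 250 bases before the RefSeq start of each gene (GRCm38.p6) are printed because the members occurred together in some cells and apart in others. RefSeq starts Tas1r1 at 152038490 and Tas1r3 at 155863353, so 78 and 9 bases of those windows lie inside the GENCODE genes, while the 2 annotations start Tas1r2 at the same base. The sequences read 5′ to 3′ on the strand of the gene, and capitals mark a match to a searched motif.
Tas1r1, chr4:152038491-152038740, reverse strand: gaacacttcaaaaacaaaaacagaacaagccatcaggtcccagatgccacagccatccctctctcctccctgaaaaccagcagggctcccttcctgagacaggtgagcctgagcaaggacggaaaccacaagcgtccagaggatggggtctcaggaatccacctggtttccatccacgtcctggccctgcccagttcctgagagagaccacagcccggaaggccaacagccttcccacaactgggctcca
Tas1r2, chr4:139653288-139653537, forward strand: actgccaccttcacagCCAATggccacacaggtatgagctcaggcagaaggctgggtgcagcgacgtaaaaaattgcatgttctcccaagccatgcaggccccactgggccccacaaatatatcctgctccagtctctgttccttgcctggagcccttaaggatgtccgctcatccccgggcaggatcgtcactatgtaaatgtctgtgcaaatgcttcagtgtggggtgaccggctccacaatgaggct
Tas1r3, chr4:155863354-155863603, reverse strand: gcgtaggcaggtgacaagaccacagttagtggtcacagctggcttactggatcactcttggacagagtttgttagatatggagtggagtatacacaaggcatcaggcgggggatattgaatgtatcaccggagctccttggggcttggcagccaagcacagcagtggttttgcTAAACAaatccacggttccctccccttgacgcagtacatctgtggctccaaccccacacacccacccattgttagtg

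Both strands were searched for the octamer ATGCAAAT, for the forkhead motif TGTTTAC with its short form TGTTTA inside it, for the TATA box as TATAAA, for the CCAAT box and for the GC box as GGGCGG. The Tas1r2 window held CCAAT at 234 to 230 bases before the RefSeq start, a motif found in 33.8% of 32851 promoter windows of the same length. The Tas1r3 window held the short forkhead motif as TAAACA, its reverse complement, at 77 to 72 bases before the RefSeq start, and 12.03% of all windows held it. The Tas1r1 window held none of them. The octamer occurred in 1.60% of windows, the forkhead motif in 3.17%, the TATA box in 12.4% and the GC box in 32.7%. These matches are letters in a window and say nothing of a factor's binding.

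The tables held 29 FP and 61 CV barcodes, and the libraries shared 0 of them. Kept cells, 21 from FP and 32 from CV, are those that had over 500 genes and a Gnat3 level, as ln(1 + counts per 10000), above 0.9. Kept FP cells had 193718 to 3190340 counts each and kept CV cells 32726 to 3447628 counts, with medians of 1141644 and 543963. Markers of type II taste cells were high in most kept cells. In kept cells with a Tas1r gene the sum of 7 type II markers ran from 8850 to 26485 CPM in FP and from 2602 to 33337 CPM in CV, and the type III markers Car4, Pkd2l1, Ddc and Chgb were at 0. Each of the 7 had a median of 50 CPM or more in these cells of both papillae. Gnat3 is among the 7, and the limit for kept cells already requires it above 50 CPM, so its part of the sums follows from the selection. Kept cells without a Tas1r gene had type II sums of 4887 to 27186 CPM in FP and of 263 to 35988 CPM in CV, where the lowest was a barcode with 88.6% mitochondrial counts. Summed over the 12 markers of lingual keratinocytes, the cells with a Tas1r gene had 109 to 163 CPM in FP and 0 to 917 CPM in CV. The sums stayed at or below 6.50 CPM in FP and 248 CPM in CV for 9 type III markers, 160 and 998 CPM for 4 type I markers, 584 and 552 CPM for 6 progenitor markers, 3.59 and 180 CPM for 5 immune markers and 1.75 and 150 CPM for 5 fibroblast and endothelial markers. The 4 taste bud genes summed to 4179 to 10117 CPM in FP and to 26.4 to 10023 CPM in CV. Another 7 FP barcodes, not kept, had lingual keratinocyte markers summing to 60268 CPM or more.

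Low counts of a Tas1r gene were common in cells that did not carry it in quantity. Tas1r1 had 1 count or more in 19 of 21 kept FP cells and 16 of 32 kept CV cells, Tas1r2 in 4 of 21 and 21 of 32, and Tas1r3 in 16 of 21 and 17 of 32. Yet among the 7 keratinocyte barcodes, whose median depth of 1679950 counts was above that of kept cells, 4 had a Tas1r1 count, 1 a Tas1r2 count and 3 a Tas1r3 count. The member with low counts in the most barcodes was, in each library, the one with the most counts in total. In FP, 20 of 26 barcodes outside the Tas1r1 cells held 1 to 10 Tas1r1 counts, 59 in all, or 0.424% of the library's 13924. In CV, 22 of 56 barcodes outside the Tas1r2 cells held 1 to 6 Tas1r2 counts, 42 in all, or 0.431% of the library's 9737. A gene was therefore called on in a cell at 50 CPM or more with 10 counts or more, and none of the 7 keratinocyte barcodes was on for a Tas1r gene, which allows a share of up to 42.9%.

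Tas1r3, the subunit that both receptors share, was on in 8 of 21 kept FP cells (38.1%, 95% interval 18.1 to 61.6%) and in 7 of 32 kept CV cells (21.9%, 9.28 to 39.97%). These exact intervals overlap, and they cover counting error only. Per cell, Tas1r3 had a lowest, median and highest level of 0, 3.55 and 625 CPM in kept FP cells and of 0, 0.509 and 760 CPM in kept CV cells. In the 8 FP cells it was on at 109, 117, 136, 250, 266, 270, 483 and 625 CPM, and the next FP cell below had 20.6 CPM from 4 counts. In the 7 CV cells it was on at 52.8, 187, 192, 243, 535, 574 and 760 CPM, and the next CV barcode below had 22.9 CPM. The ranges of the FP and CV cells overlapped almost wholly. The lowest CV cell was on by 14 counts in a barcode with 52.9% mitochondrial counts.

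Tas1r1, the subunit particular to the umami receptor, was on in 3 of 21 kept FP cells (14.3%, 3.05 to 36.3%) and in 8 of 32 kept CV cells (25%, 11.5 to 43.4%). The 3 FP cells had 5800, 5415 and 65.7 CPM, from 7615, 6182 and 68 counts. The 8 CV cells had 74.8, 156, 157, 173, 461, 467, 902 and 2078 CPM. The 2 strongest FP cells were above each CV cell, and the third was below each of them. The CV cell at 2078 CPM was the shallowest of all kept cells, with 68 Tas1r1 counts of 32726 and 602 genes. The FP barcode next below the limit had 6.28 CPM and the CV barcode next below had 43.8 CPM, so the edge was clear in FP and narrow in CV.

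Tas1r2, the subunit particular to the sweet receptor, was on in 2 of 21 kept FP cells (9.52%, 1.17 to 30.4%) and in 3 of 32 kept CV cells (9.38%, 1.98 to 25.02%). The 2 FP cells had 392 and 86.0 CPM, and no other FP barcode had more than 1 count. The 3 kept CV cells had 64.1, 68.0 and 127 CPM. A further CV cell reached 70.1 CPM by 3 counts alone, in a barcode with 79.0% ribosomal RNA counts, and was not called. The strongest Tas1r2 of the study stood in 2 CV barcodes that the Gnat3 limit left out, at 4123 and 2211 CPM. Over all barcodes Tas1r2 was thus on in 2 of 29 from FP and 5 of 61 from CV, Tas1r1 in 3 of 29 and 9 of 61, and Tas1r3 in 8 of 29 and 8 of 61.

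**Figure D1:**
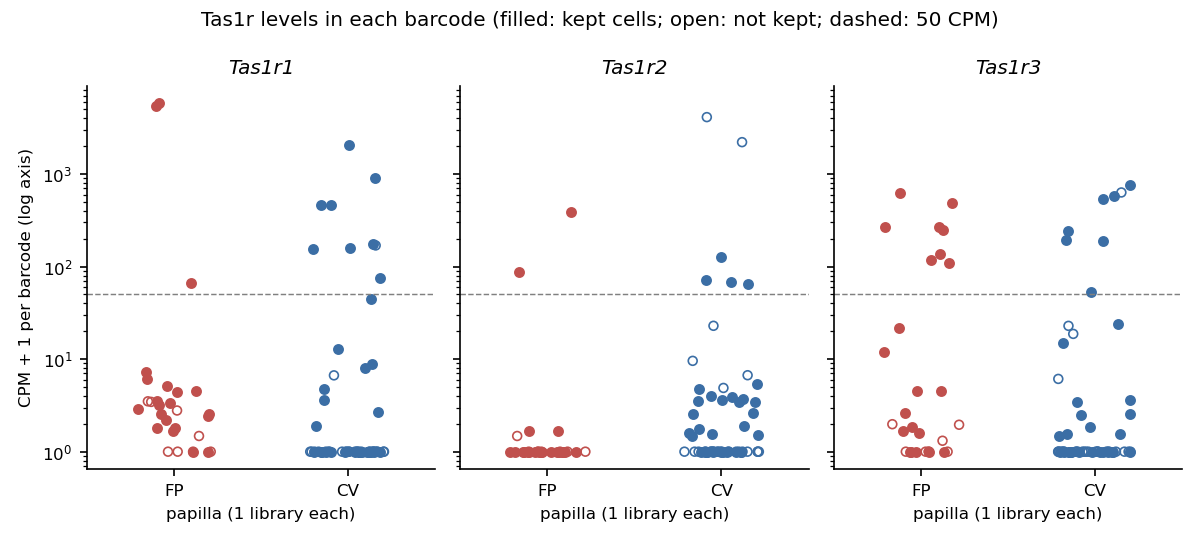
Level of Tas1r1, Tas1r2 and Tas1r3 in each barcode, as CPM + 1 on a log axis, with FP left of CV, filled points for kept cells, open points for the rest and a dashed line at 50 CPM. The 2 FP cells at 5415 and 5800 CPM stand highest for Tas1r1, the 2 highest Tas1r2 points are CV barcodes that were not kept, and Tas1r3 covers a similar range in both papillae. The CV Tas1r2 point at 70.1 CPM rests on 3 counts and was not called on.

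Pairings rest on few cells. In FP, each of the 3 cells with Tas1r1 also had Tas1r3 (interval for the share 29.2 to 100%), and so did both cells with Tas1r2. In kept CV cells, 3 of 8 cells with Tas1r1 had Tas1r3 (37.5%, 8.52 to 75.5%) and 1 of 3 with Tas1r2 had it. The intervals overlap, and the difference was not tested. Seen from Tas1r3, 3 of 8 FP cells and 3 of 7 CV cells also had Tas1r1.

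Cell by cell, FP barcode 540025 had all 3 genes, Tas1r1 at 5800, Tas1r2 at 392 and Tas1r3 at 270 CPM. FP barcode 83863 also had all 3, at 65.7, 86.0 and 266 CPM. FP barcode 63443 had Tas1r1 at 5415 and Tas1r3 at 625 CPM with 0 counts of Tas1r2, so it held the umami pair without the sweet subunit. The other 5 FP cells had Tas1r3 with neither partner on, with at most 5 Tas1r1 counts and 1 Tas1r2 count each. No FP cell had Tas1r1 or Tas1r2 without Tas1r3 (0 of 21, which allows a share of up to 14.3% each).

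Among kept CV cells, 3 had Tas1r1 with Tas1r3. They were barcode 171033 at 902 and 760 CPM, barcode 628352 at 461 and 535 CPM and barcode 460383 at 467 and 192 CPM. Barcode 519708 had Tas1r2 at 64.1 and Tas1r3 at 187 CPM. In these 4 cells the third gene was at most 6.96 CPM, so no kept CV cell had all 3 genes on. Tas1r3 stood alone in 3 CV cells. Barcodes 171033 and 171025 lay in a run of 6 CV barcodes with adjoining numbers, 5 of them kept, and whether these share a cell was not tested. Without the run, Tas1r1 was on in 6 of 27 kept CV cells, Tas1r3 in 6 and both in 2.

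Unlike in FP, 5 kept CV cells had Tas1r1 without Tas1r3. In 4 of them the upper limit for Tas1r3 lay below the 50 CPM at which a gene was called on. Barcode 15464 held 324 Tas1r1 counts and 1 Tas1r3 count of 2081456, an upper limit of 2.68 CPM. Barcodes 171025 and 797649 had upper limits of 2.73 and 2.99 CPM, and barcode 722629 had Tas1r3 at 13.8 CPM with an upper limit of 19.3 CPM. In the shallow barcode 189949 the limit was 113 CPM, so Tas1r3 at the level called on was not detectable at this depth. Tas1r2 stood alone in 2 kept CV cells, barcode 222720 at 127 CPM with 0 Tas1r3 counts (upper limit 3.19 CPM) and barcode 659817 at 68.0 CPM with 1 Tas1r3 count (upper limit 4.68 CPM). These limits too cover counting error only.

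**Figure D2:**
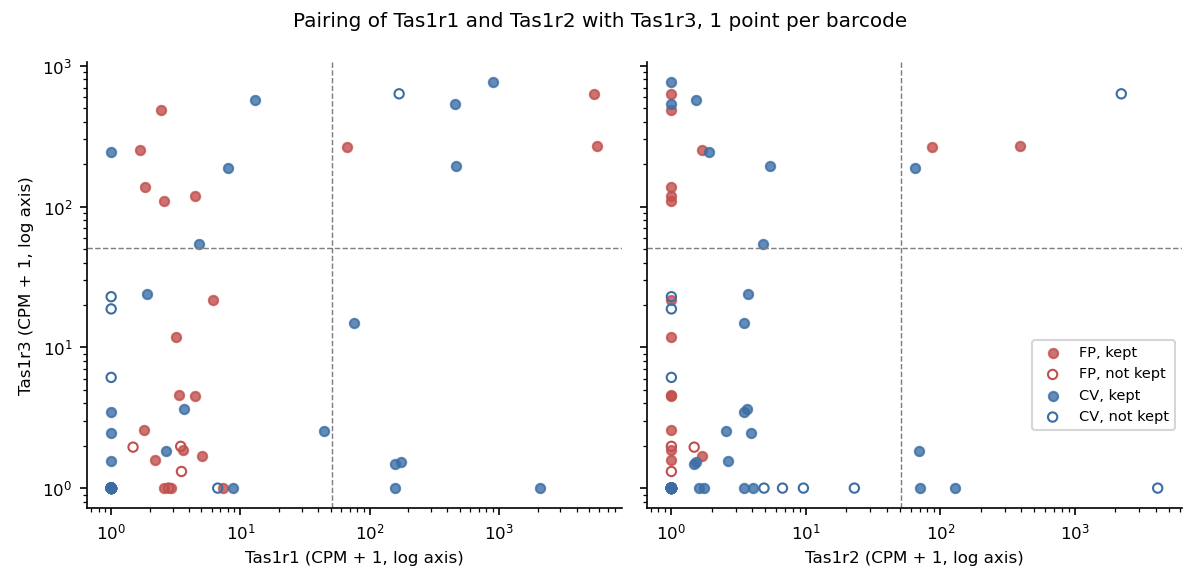
Tas1r3 (vertical) against Tas1r1 (left panel) and Tas1r2 (right panel) in each barcode, as CPM + 1 on log axes, red for FP, blue for CV, open for barcodes not kept, with dashed lines at 50 CPM. Red points with Tas1r1 or Tas1r2 on lie in the upper right part with Tas1r3, while 5 blue kept points lie at the lower right for Tas1r1 without Tas1r3.

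The CV barcodes left out by the Gnat3 limit were of unlike kinds. Barcode 44480 was the deepest CV barcode, with 4088415 counts, and had all 3 genes on, with 688 Tas1r1, 9041 Tas1r2 and 2582 Tas1r3 counts (168, 2211 and 632 CPM). It had the type II genes Plcb2 (2005 CPM), Gng13, a G protein gamma subunit (3917 CPM), and Trpm5 (1369 CPM). Its Gnat3 was 14.9 CPM, against a median of 4120 CPM in kept CV cells, and the G alpha gene Gna14 was at 1758 CPM. Barcode 679689 had Tas1r2 alone at 4123 CPM, from 205 counts in a barcode of 49717 counts and 663 genes. It had Krt8, a taste bud keratin, at 3620 CPM, 1 count each of Gnat3 and Trpm5, and none of Gng13, Plcb2 and Itpr3. The remaining 27 CV barcodes that were not kept had no Tas1r gene on. Most CV barcodes that were not kept were poor, however. All 29 together had medians of 133691 counts, 663 genes and 92.5% mitochondrial counts, which limits what absence can show.

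Per kilobase of the longest annotated transcript, the genes of a pair did not stand at equal levels. In FP barcode 540025, Tas1r1 was at 2026, Tas1r2 at 129 and Tas1r3 at 76.5 CPM per kilobase. In FP barcode 63443, Tas1r1 was at 1891 and Tas1r3 at 178 CPM per kilobase. In CV barcode 44480, Tas1r2 was at 726, Tas1r3 at 179 and Tas1r1 at 58.8 CPM per kilobase. Tas1r1 was above Tas1r3 in 2 of the 3 FP cells and in all 3 kept CV cells with both genes on. In CV barcode 171033 the levels were 315 against 216 CPM per kilobase. They were 163 against 54.5 in barcode 460383 and 161 against 152 in barcode 628352. In barcode 628352 the order came from the division by length, since in CPM Tas1r3 was the higher, at 535 against 461. Tas1r2 was above Tas1r3 in FP barcode 540025 and CV barcode 44480. In FP barcode 83863 Tas1r3 was the highest, at 75.4 CPM per kilobase against 28.2 for Tas1r2 and 22.9 for Tas1r1, and in CV barcode 519708 Tas1r3 was at 53.2 against 21.04 for Tas1r2. How evenly reads cover transcripts is not stated in the sources used here.

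Gnat3 was on in each kept cell with a Tas1r gene, as the limit for kept cells requires. In FP it was 660 CPM in barcode 63443, 2140 CPM in barcode 540025 and 5940 CPM in barcode 83863, and it ran from 4278 to 7746 CPM in the 5 cells with Tas1r3 alone. The FP cells with no Tas1r gene had 377 to 8800 CPM, with a median of 5320 CPM. The 2 FP cells with strong Tas1r1 were thus below each FP cell with Tas1r3 alone. In CV, Gnat3 was 2567 to 6295 CPM in the 5 cells with Tas1r1 alone, 3183 to 4103 CPM in the 3 with Tas1r1 and Tas1r3, 339, 5605 and 6708 CPM in the 3 with Tas1r3 alone, and 173 to 16848 CPM in the 18 with none. The CV cells with Tas1r2 on had 460, 2836 and 4136 CPM of Gnat3 in kept cells, and 14.9 and 20.1 CPM in the 2 that were not kept. Gnat3 ranges of Tas1r cells and of the others overlapped in both libraries.

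Bitter receptor levels of the FP cells with Tas1r1 or Tas1r2 lay below those of all other kept Tas1r cells. Summed over the Tas2r genes, 34 of which were listed, the 3 cells had 1.75, 1.93 and 9.14 CPM, and no Tas2r gene was on in them. The 5 FP cells with Tas1r3 alone had 81.1, 214, 483, 519 and 1510 CPM of Tas2r, with no Tas2r gene on in the first and 1 to 6 on in the other 4. The 2 ranges did not overlap, and FP cells without a Tas1r gene, at 0 to 4075 CPM, covered both. Each of the 14 kept CV cells with a Tas1r gene had 1 to 16 Tas2r genes on. Their Tas2r sums were 1807 to 8128 CPM with Tas1r1 alone, 456 to 2631 CPM with Tas1r1 and Tas1r3, 994 and 1249 CPM with Tas1r2 alone, 794 CPM with Tas1r2 and Tas1r3, and 2487 to 3013 CPM with Tas1r3 alone. Kept CV cells without a Tas1r gene, at 0 to 5994 CPM of Tas2r (median 1171) with 0 to 11 genes on, covered most of this range. The lowest sum of a kept CV cell with a Tas1r gene lay above the highest of the FP cells with Tas1r1 or Tas1r2. CV barcode 44480, with all 3 Tas1r genes, had 60.9 CPM of Tas2r with 1 gene on, and barcode 679689 had 0.

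**Figure D3:**
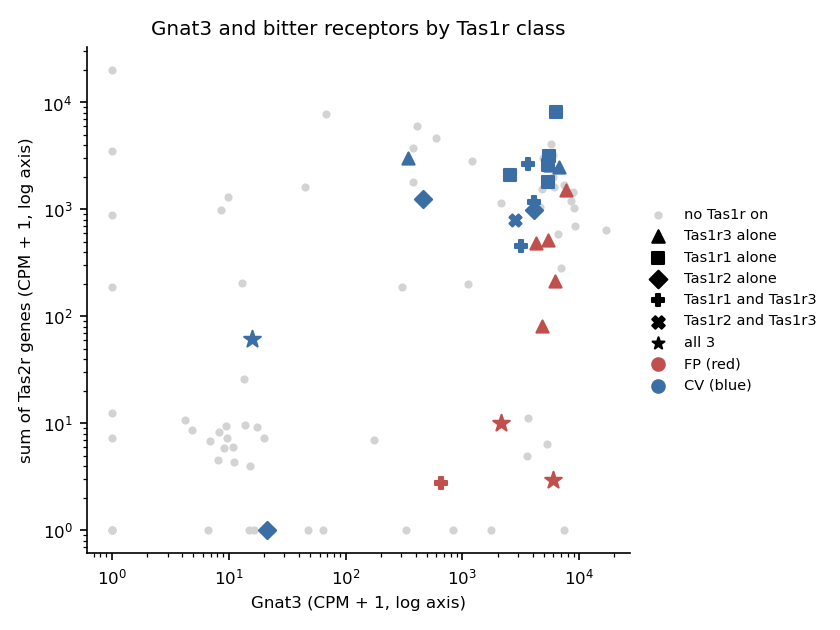
Gnat3 (horizontal) and the sum of Tas2r genes (vertical) in each barcode, as CPM + 1 on log axes, with the marker giving the set of Tas1r genes on, red for FP, blue for CV and grey for barcodes with none. The 3 red markers for Tas1r1 or Tas1r2 lie at 9.14 CPM of Tas2r or less, and the blue markers of kept cells lie at 456 CPM or more.

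Of 12 genes of the signalling path, 11 reached 10 CPM in a library, and pooled over kept cells none was 2-fold or more higher in FP and 2 were 2-fold or more lower. Of all 10918 genes at that level, 17% were 2-fold or more higher in FP and 21% were 2-fold or more lower. As log2 of FP over CV, the signalling genes had a median of 0.13, against -0.05 for all genes. Calhm3 was listed in neither library, and Gna14 was not listed in FP. Gnb3 (a G protein beta subunit), Gng13, Plcb2 and Itpr3 were on in 8 of 8 FP cells with a Tas1r gene, and Trpm5 in 7 of 8. The exception was FP barcode 63443, with Trpm5 at 10.5 CPM, against 1129 to 2847 CPM in the other 7. Its Gnb3 was also the lowest of kept FP cells, at 540 CPM. In kept CV cells with a Tas1r gene, Gnb3 was on in 14 of 14, Gng13, Plcb2 and Trpm5 in 13 of 14 each and Itpr3 in 11 of 14. The CV exception for Plcb2 and Trpm5 was barcode 258746, the cell with 14 Tas1r3 counts, at 3.77 and 26.4 CPM. The beta subunit Gnb1 was on in 7 of 8 FP and 7 of 14 CV cells with a Tas1r gene, and the regulator Rgs21 in 7 of 8 and 8 of 14. The channel Trpm4 was on in 1 of 8 and 2 of 14, Gna14 in 0 of 8 and 2 of 14, and the ATP release channel Calhm1 in 0 of 8 and 0 of 14.

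Kit, a receptor tyrosine kinase known as a marker of sweet taste cells, formed a list with Etv1, Foxa2 and Tmem45b, and 3 of these 4 reached 10 CPM, all 2-fold or more higher in FP (17% of all genes were), with a median log2 ratio of 4.02. That holds for kept cells. Over all barcodes, which adds CV barcode 44480, the log2 ratio was 0.43 for Kit and -1.22 for Etv1, against 4.02 and 2.15 in kept cells, and 1.72 for Tmem45b, against 4.77. Foxa2 was not listed in FP. Kit was on in 5 of 8 FP cells with a Tas1r gene and in 2 of 13 without. It had 865, 822 and 354 CPM in the 3 cells with Tas1r1 and 221 and 220 CPM in 2 of those with Tas1r3 alone. Etv1, a transcription factor, was on in 3 of 8 and in 0 of 13, and its 3 cells were those with Tas1r1, at 177, 646 and 326 CPM in barcodes 540025, 63443 and 83863. Tmem45b was on in 6 of 8 and in 7 of 13, and its highest FP level, 1991 CPM, was in a cell without a Tas1r gene. None of the 4 genes was on in a kept CV cell, although 14 of those cells had a Tas1r gene. Barcode 44480 had all 4 on, Kit at 683, Etv1 at 903, Foxa2 at 888 and Tmem45b at 587 CPM. The closest kept CV cell was barcode 519708, with Tas1r2 and Tas1r3, which had 46.7 CPM of Etv1, 40.6 of Foxa2 and 30.5 of Tmem45b.

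Of 6 genes of glucose sensing, 3 reached 10 CPM, and 2 of them were 2-fold or more higher in FP, as 17% of all genes were (median log2 ratio 1.82). Over all barcodes the log2 ratio was 3.25 for Kcnj11 and 0.75 for Abcc8, against 3.79 and 1.82 in kept cells. Kcnj11, which encodes the ATP-sensitive potassium channel's pore, was on in 3 of 8 FP cells with a Tas1r gene and 4 of 13 without, and in no kept CV cell. Its partner Abcc8 was on in 1 of 8 and 2 of 13 FP cells. The glucose transporter Slc2a1 was on in 6 of 8 and 6 of 13 FP cells, and in 7 of 14 and 4 of 18 CV cells. The sodium-glucose transporter Slc5a1 was on in none of them.

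Among other class C receptors 1 of 6 reached 10 CPM, Casr, the calcium-sensing receptor, which was not listed in FP. It was on in 3 kept CV cells, 2 of them with Tas1r2, barcode 659817 at 1119 CPM and barcode 519708 at 133 CPM. Among genes for receptor transport to the cell surface 1 of 6 reached 10 CPM, Rtp4, which was on in 0 of 8 FP cells and in 2 of 14 CV cells with a Tas1r gene. Reep2, which is known to raise sweet receptor function, had at most 3.66 CPM in these cells.

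**Figure D4:**
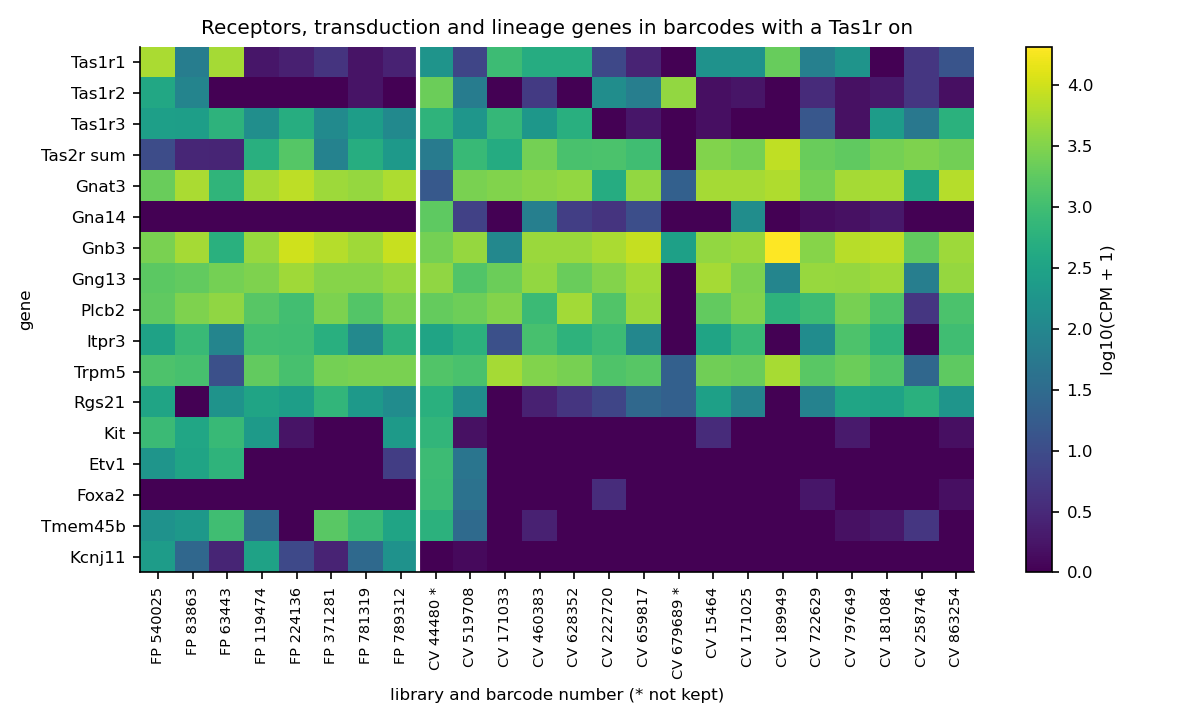
Levels of the Tas1r genes, the Tas2r sum, signalling genes and the Kit group (rows) in each barcode with a Tas1r gene on (columns, FP left of the white line, CV right, an asterisk for barcodes not kept), as log10(CPM + 1). The first 3 FP columns combine Tas1r1 with Kit and Etv1 and a Tas2r sum of 9.14 CPM or less, and CV barcode 44480 is the CV column with Kit, Etv1, Foxa2 and Tmem45b on.

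Pooled over kept cells, Tas1r1 stood at 614 CPM in FP (604 to 624) and at 73.9 CPM in CV (70.8 to 77.0), a ratio of 8.31 (7.94 to 8.70) and 2.89 on the log2(CPM + 10) scale. Tas1r1 was the only member past 2-fold, as 38% of all genes were in either direction and 17% in this one. The 2 strongest cells gave 99.2% of its FP counts. Without the cell with the most Tas1r1 counts in each library its log2 ratio was 2.15. Its share of cells on was the lower in FP, 14.3% against 25% in CV. Tas1r3 stood at 132 CPM in FP (127 to 137) and at 99.2 CPM in CV (95.6 to 103), a ratio of 1.33 (1.26 to 1.40). Tas1r2 stood at 26.8 CPM in FP (24.7 to 28.98) and at 16.5 CPM in CV (15.02 to 17.98), a ratio of 1.63 (1.44 to 1.84). Without the cell with the most Tas1r2 counts in each library, the log2 ratio of Tas1r2 was -0.50 rather than 0.47. In CV that cell was barcode 519708, with 221 counts. At 64.1 CPM it had the lowest level of the kept CV cells with Tas1r2 on. Over all barcodes the log2 ratio was -3.29 for Tas1r2 and -0.71 for Tas1r3, and CV barcode 44480 held 92.9% of the CV Tas1r2 counts. The pooled levels of Tas1r2 and Tas1r3 thus gave no order of the papillae that held across these sets of barcodes. The order for Tas1r1 rested on its 2 strongest FP cells. No other kept FP cell had more than 65.7 CPM, so without both the pooled FP level lies below the 73.9 CPM of CV. A ratio without both was not computed.

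The genes most like each member were ranked by Pearson's r of ln(1 + counts per 10000) over the 53 kept cells, with each library's mean removed, among 6267 genes on in at least 5 of them. The cells share libraries and differ widely in depth, so r is a description. For Tas1r1 they were Lama5 (0.71), Zbtb48 (0.65), Usp25 (0.65), Eftud2 (0.64) and Ppan (0.63), all led by the FP cells. Each was on in only 2 to 4 of the 11 Tas1r1 cells. Without the strongest Tas1r1 cell r was 0.43 for Zbtb48, 0.50 for Usp25 and 0.58 to 0.60 for the rest. For Lama5, a laminin subunit, r was 0.95 within FP and 0.21 within CV. For Tas1r2 they were Cyp51, an enzyme of cholesterol synthesis (0.67), Ap1s1 (0.66), Nprl3 (0.66), Gpcpd1 (0.65) and the transcription factor Xbp1 (0.65), with 5 Tas1r2 cells behind them, and without the strongest Tas1r2 cell r was 0.15 for Nprl3 and 0.42 to 0.55 for the other 4. For Tas1r3 they were the homeodomain factor Cux1 (0.67), Abcc1 (0.62), Fbxo21 (0.59), Ap2b1 (0.58) and Grsf1 (0.57). Cux1 was on in 11 of the 15 Tas1r3 cells and in 18 kept cells in all, and the 6 cells with Abcc1, an efflux transporter, all had Tas1r3. Both genes were picked by r in these same cells, so such overlap follows from the ranking and adds no separate support. Between members, r was 0.50 for Tas1r1 with Tas1r3, 0.36 for Tas1r1 with Tas1r2 and 0.17 for Tas1r2 with Tas1r3. Within CV, r was -0.18 for Tas1r1 with Tas1r2 and -0.06 for Tas1r2 with Tas1r3, and over both libraries Tas1r1 with Tas1r2 was at -0.10 without the strongest cell.

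Zbtb48, a zinc finger gene among those most like Tas1r1, is also its neighbour. It lies 242 bases beyond the 3′ end of Tas1r1 on the same strand (chr4:152019774-152027671). Zbtb48 had 1104 CPM in FP barcode 540025 and 226 CPM in FP barcode 63443, the 2 cells with strong Tas1r1, and 2.90 CPM in barcode 83863. It was also on in 3 FP cells with at most 2.57 CPM of Tas1r1, at 73.7, 117 and 123 CPM. In CV it was on in no kept cell, with at most 1 count in the 8 cells with Tas1r1. Whether reads that run on from Tas1r1 were counted as Zbtb48 was not tested. Tas1r3 shares 36 bases with Dvl1 on the opposite strand, and Dvl1 was at most 9.14 CPM in FP cells and 6.76 CPM in CV cells with Tas1r3. Tas1r2 shares 48.1% of its 31-base words with the annotated overlapping gene Gm21969, which was listed in neither library. The 3 members share 0 such words with one another.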

How the data were processed

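Fluorescent cells were sorted by GFP, size, singlet gates and a dead-cell dye, captured with BD Rhapsody and amplified by TAS-Seq, per the labels' protocols and the series design. The values deposited by the authors are raw counts, whole numbers for each gene in each barcode. Build mm10 and the tools Bowtie2 2.3.4.1, cutadapt 2.10 and Seurat 2.3.4 are named, per the submitters' processing notes. Reads were mapped to reference RNA of the mouse, and an error correction based on count distributions was applied, per the series design. Neither collapsing of molecular barcodes nor use of strand is stated in the sources used here. The counts may hold PCR copies, so intervals cover counting error only.

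CPM is a gene's count over the barcode's total, and pooled CPM is the summed count over the summed total. A gene missing from a table was taken as 0. Cells were kept above 500 genes and above 0.9 on ln(1 + 10000 × Gnat3/total), with the stated logarithm read as natural. No mitochondrial limit was used, and doublets were not called in 90 barcodes. Intervals at 95% were exact Poisson for CPM, conditional binomial for ratios and Clopper-Pearson for shares, and a share of 0 allows 3 cells of the total. With 1 library per group no p-value was computed. The members, the gene lists, the limit of 50 CPM and the marker lists were chosen with earlier results of these data known. Named genes were the members, the 5 lists and the 5 genes most like each member by the stated correlation. Neighbouring and overlapping genes were named after their values were seen. Sequences are from RefSeq and gene positions from GENCODE M21, in which all 3 members matched. Computation used pandas 2.3.3 and scipy 1.17.1, and was checked on simulated data. Alternatives were other cell sets, totals, limits for on, thinning, weights and pseudocounts.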

Additional observations from a re-analysis of the deposited data

How the results depend on the processing

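The 1854 genes 2-fold or more higher in FP and the 2297 lower came to 2457 and 3003 with a pseudocount of 1 CPM. With no filter on low genes, then of 21888 genes, the counts were again 1854 and 2297, by construction. The main pseudocount equals the limit on low genes, so a gene below that limit in both libraries cannot reach 2-fold. Leaving out the filter therefore could not test these counts. Tas1r1 remained higher in FP under each alternative that was run, with a log2 ratio of 2.23 without the Gnat3 limit and 2.25 over all barcodes. The ratio was 2.15 without the cell with the most counts of the gene in each library. It was 1.85 by mean CPM over cells and 3.04 with a pseudocount of 1 CPM. No alternative left out both of the 2 FP cells that gave 99.2% of the FP Tas1r1 counts. The order does not hold without them, as no other kept FP cell had more than 65.7 CPM, against 73.9 CPM pooled in CV. Tas1r2 turned to -3.31 without the Gnat3 limit, -3.29 over all barcodes and -0.50 without its highest-count cell in each library. It was 0.67 with a pseudocount of 1 CPM. Tas1r3 turned to -0.73 without the Gnat3 limit and -0.71 over all barcodes, and was 0.60 without its highest-count cell in each library. At 1 count or more, cells on came to 90.5% of FP and 50% of CV for Tas1r1, 65.6% of CV for Tas1r2, and 76.2% of FP and 53.1% of CV for Tas1r3. On that rule, Tas1r1 with Tas1r3 came to 76.2% of FP and 40.6% of CV cells, Tas1r2 with Tas1r3 to 46.9% and all 3 to 34.4% of CV cells, and Tas1r3 alone to 0% of FP and 0% of CV cells. At 200 CPM, Tas1r2 was on in 0% of CV cells. Tas1r2 with Tas1r3 was at 0% of CV cells there, after thinning and without the highest-count Tas1r2 cell. That last 0% follows from the choice, as this cell was the only kept CV cell with both on. The other 60 shares of cells on and 79 shares of pairings stayed within their main interval. With so few cells those intervals are wide. At 200 CPM, Tas1r1 in CV went from 25% to 12.5% and Tas1r3 in FP from 38.1% to 23.8%, both within the interval. Thinning to 71770 counts left out 0 FP and 6 CV cells. A run of 6 CV barcodes with adjoining numbers, 5 of them kept, was left out as an alternative chosen after seeing the data, and the log2 ratio of Tas1r1 was then 3.01. Over all barcodes, likewise chosen after seeing the data, Etv1 turned to -1.22, and Kit (0.43) and Abcc8 (0.75) fell short of 2-fold. No paired analysis was possible because each papilla had 1 library. Shallow CV cells limit what 0 counts can show.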
